A study of Mus musculus with 4 samples.

Results

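Ion channels and the proteins that move and sense calcium were followed in lymphatic endothelial cells of the meninges of aged mice. The set holds every gene of the deposited table whose name begins like a potassium, sodium, calcium, chloride, TRP, Piezo, anoctamin, polycystin, purinergic or pannexin channel, an aquaporin, an intracellular calcium release channel, a calcium or sodium pump, a calmodulin or a calmodulin-dependent kinase, which gave 105 of 9114 genes. Of these, 6 were caught by their name although they encode no channel subunit (Camkmt, Tmem164, Tmem165, Tmem167, Tmem167b and Trpc4ap), and they are described separately. Male C57BL/6J mice aged 20 to 24 months received 5 µL of AAV1-CMV-mVEGF-C, a viral vector that expresses the mouse lymphatic growth factor VEGF-C from the ubiquitous CMV promoter, or of AAV1-CMV-eGFP as control, both into the cisterna magna. After 4 weeks, meninges were pooled from 10 mice per library, 2 libraries per group, and single live CD45- CD31+ podoplanin+ cells were sorted. All mice, controls included, had received a vector, so no library stands for untreated meninges.

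Endothelial cells do not fire action potentials, but their resting potential, set largely by potassium channels, fixes the driving force for calcium entry. A rise in calcium comes from inositol trisphosphate receptors on the endoplasmic reticulum, from Orai channels that the store sensor Stim1 opens when the store empties, and from mechanosensitive and TRP channels in the plasma membrane. In lymphatic endothelium, Piezo1 senses flow, and calcium entry through Orai1 is a known part of the response of these cells to flow.

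The reads recovered over the 9114 deposited genes came to between 25610683 and 28632461 per library, and the set took 0.951% to 1.18% of them. Genes left out before deposit enter neither number, so the full depth is not known. Lymphatic markers were abundant: 17 of 18 listed genes had a row, with a summed level of 562250 and 651808 normalised counts in eGFP 1 and 2 and 733961 and 600293 in mVEGF-C 1 and 2. Fibroblast markers (9 of 16 with a row) summed to between 48146 and 94594 per library, and mural markers (4 of 15) to between 8649 and 17469. The libraries were bulk samples, in which fewer cells of a type and less RNA per cell cannot be told apart. As read from its values, the table had been limited to genes whose replicates agreed, so the spread between libraries is understated and every p-value below is too small by an unknown amount.

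Of the 104 genes tested (Cacng3, a calcium channel auxiliary subunit, fell under the minimum mean of 10), 2 rose and 1 fell in the mVEGF-C libraries by limma at an adjusted p under 0.05. Nalcn, the sodium leak channel, and Kcnip4, an accessory subunit of voltage-gated potassium channels, were higher, and Camkmt, a methyltransferase of calmodulin, was lower. Over all 9063 genes tested, 0.828% were called higher and 1.31% lower, against 1.92% and 0.962% of the set, so these counts lie near the background. The other tools called 0.739% higher and 0.872% lower of all genes (edgeR) and 3.12% and 3.51% (DESeq2), so DESeq2 calls named below come from a far longer list. At an unadjusted p under 0.05 there were 4 higher and 8 lower members, or 3.85% and 7.69%, against 5.09% and 6.7% of all genes. The median log2 fold change, mVEGF-C minus eGFP, was -0.07 over the set and -0.02 over all genes, and the median absolute log2 fold change was 0.72 and 0.79. The libraries of the groups did not overlap, with mVEGF-C higher, for 20 members and, with mVEGF-C lower, for 17, or 19.2% and 16.3%, against 19.4% and 19.8% of all genes tested. Fold changes were above 0 for 50 members (48.1%), against 49.5% of all genes. The plot of fold changes by role shows the intervals behind these counts.

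**Figure D1:**
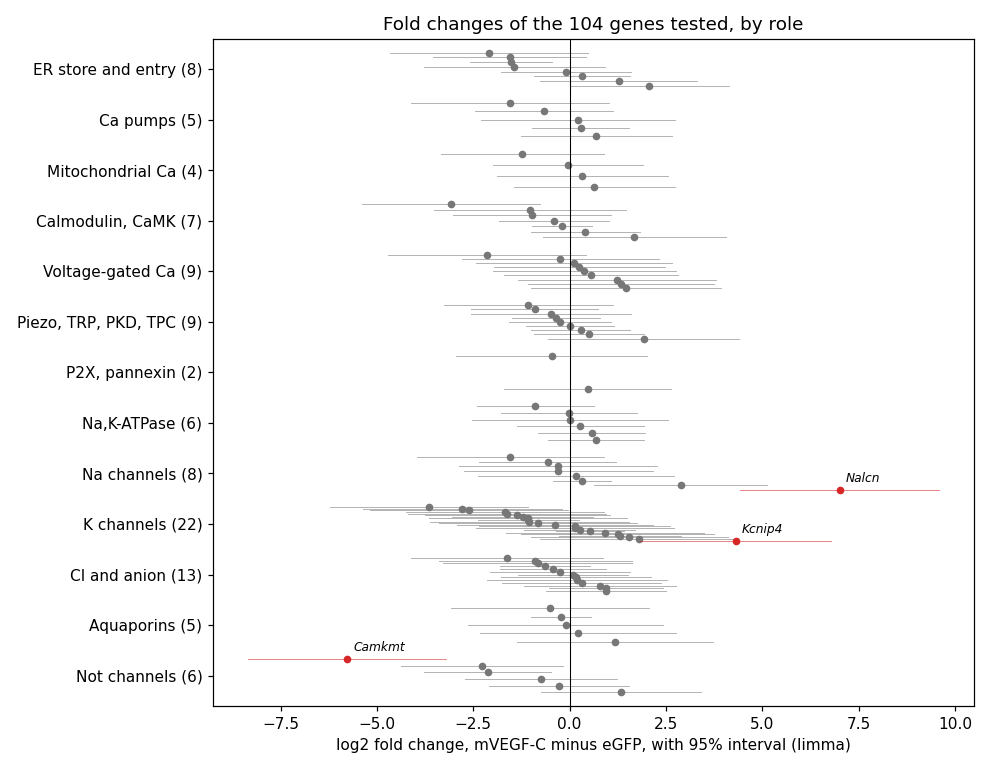
Each point is the log2 fold change (mVEGF-C minus eGFP, horizontal axis) of 1 of the 104 genes tested, with its 95% interval from limma, in rows by role with the number of genes in brackets. The 3 called genes, Nalcn, Kcnip4 and Camkmt, are drawn in red, and their intervals exclude 0, while those of most other genes include it.

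The promoters of the 3 called genes are shown first, because each transcript was low or near absence in 1 of the groups, and because Camkmt starts close to another measured gene. RefSeq (GRCm38.p6) gave a promoter, from 250 bases before to 50 after the start, for 74 of the 105 genes. Capitals mark matches, on either strand, to GGAAAA (a core bound by NFAT, the calcium-driven transcription factors), CAGCACC (the left part of the site of REST, a repressor of neuronal genes) or GGGCGG (the GC box of Sp1). These letters do not overlap one another.
Nalcn, chr14:123627095-123627394, minus strand: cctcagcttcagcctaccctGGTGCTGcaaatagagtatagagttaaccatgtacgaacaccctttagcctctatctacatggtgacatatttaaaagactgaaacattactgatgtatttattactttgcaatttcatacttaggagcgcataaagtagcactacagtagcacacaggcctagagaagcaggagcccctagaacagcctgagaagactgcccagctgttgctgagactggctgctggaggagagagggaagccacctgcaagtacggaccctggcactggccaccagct
Kcnip4, chr5:49285610-49285909, minus strand: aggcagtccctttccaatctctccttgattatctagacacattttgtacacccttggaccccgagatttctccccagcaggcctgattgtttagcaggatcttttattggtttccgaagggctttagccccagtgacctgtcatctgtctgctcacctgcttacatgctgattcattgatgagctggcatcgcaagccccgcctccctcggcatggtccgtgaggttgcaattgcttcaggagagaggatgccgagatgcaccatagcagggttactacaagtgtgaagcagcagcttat
Camkmt, chr17:85090376-85090675, plus strand: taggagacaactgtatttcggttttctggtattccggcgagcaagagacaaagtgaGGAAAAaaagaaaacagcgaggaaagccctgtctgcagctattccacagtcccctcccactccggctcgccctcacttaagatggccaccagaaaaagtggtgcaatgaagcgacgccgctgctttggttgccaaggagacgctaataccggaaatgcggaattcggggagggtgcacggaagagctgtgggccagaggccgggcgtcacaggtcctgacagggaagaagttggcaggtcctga
The Nalcn promoter held 1 match to CAGCACC, which 7.14% of all 32851 promoters of this length hold. The Camkmt promoter held 1 match to GGAAAA, which 23.4% of all promoters hold. Neither listed Kcnip4 promoter, of which the more distal is printed, held any of the 3 motifs. Both lie inside the gene span, whose minus-strand start is at 49524907, and which start these cells use was not tested. GGGCGG, present in 35.7% of all promoters, was in none of the 4 windows. These are matches of letters only. The GC content of the printed windows was 48.3% for Nalcn, 51.0% for Kcnip4 and 55.0% for Camkmt.

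Among sodium channels, Nalcn (chromosome 14, 123276634 to 123627144) carries the background sodium current that sets the resting potential of neurons. It had 0 and 6.41 normalised counts in eGFP 1 and 2, and 812 and 149 in mVEGF-C 1 and 2. Both eGFP libraries were near absence, with 3 reads in eGFP 1 equal to 2.69 normalised counts, and both mVEGF-C libraries lay far above them, although mVEGF-C 1 was well above mVEGF-C 2. On the log2(normalised count + 1) scale the difference came to 7.001 ± 1.31 SE (limma, adjusted p = 8.15e-05, higher in 2 of 2 libraries), a value that depends on the pseudocount, being 5.55 with a pseudocount of 5. It was called under 15 of 16 alternatives and was not called without eGFP 1 (log2 fold change 5.56, adjusted p = 0.171). Unc79, which encodes an auxiliary protein of the Nalcn channel, had 246 and 130 normalised counts in eGFP 1 and 2 and 130 and 189 in mVEGF-C 1 and 2, and these groups overlapped (log2 fold change -0.19 ± 1.27 SE). The mean of Nalcn over all libraries was 16.4 normalised counts per kb of exon, which ranked 8199 among the genes tested.

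Scn3a had the highest level per kb of the sodium channel genes. It encodes a pore-forming subunit of voltage-gated sodium channels known from the developing nervous system. It had 12414 and 30249 normalised counts in eGFP and 21428 and 27068 in mVEGF-C libraries, and per kb of exon it ranked 335. The mVEGF-C libraries fell between the eGFP libraries (log2 fold change 0.31 ± 0.39 SE, 95% interval -0.45 to 1.07). The span of a gene on the opposite strand, Gm13595, overlaps that of Scn3a, and Gm13595 has a row too. The strand setting is not known and overlap of exons was not examined, so it is unknown if the pair shares reads. Scn3b, an auxiliary beta subunit of these channels, had 349 and 155 against 1661 and 1779, with both mVEGF-C libraries higher and close together. A log2 difference of 2.88 ± 1.14 SE was not called (limma, adjusted p = 0.202), though DESeq2 called it (adjusted p = 0.0179). A further 4 sodium channel genes tested (Scn1a, Scn2a, Scn2b and Scn8a), known from brain, had means between 16.9 and 374 normalised counts, and their groups overlapped.

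Potassium channels were the largest class with 22 genes. Fold changes were above 0 for 10 of them, and 1 gene, Kcnip4, was called. Kcnip4 (chromosome 5, 48389502 to 49524907) encodes a calcium-binding accessory subunit of A-type potassium channels. It had 31.3 and 43.8 normalised counts in eGFP 1 and 2, and 369 and 1536 in mVEGF-C 1 and 2. The eGFP libraries were alike, and both mVEGF-C libraries lay above them, mVEGF-C 2 the higher. The difference was 4.31 ± 1.27 SE on the log2 scale (limma, adjusted p = 0.0373). The call was lost in 5 of 16 alternatives: without eGFP 1 (adjusted p = 0.379), without eGFP 2 (0.657), without mVEGF-C 2 (0.217, at a log2 fold change of 3.28), with 1 prior variance for all expression levels (without trend, 0.0912) and with a spread corrected for the replicate limits of the table (corrected spread, 0.28). Gm10025, a pseudogene with a row of its own, overlaps Kcnip4 on the opposite strand.

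Nalcn and Kcnip4 are genes of neurons, so markers of neurons and glia are given beside them. Of the 16 listed, 6 had a row (among them Syt1, Sox10, S100b and Nrxn3), and their summed level was 1075 and 1123 normalised counts in eGFP 1 and 2 and 3486 and 1710 in mVEGF-C 1 and 2. None was at 0 in any library, 5 of the 6 had log2 fold changes above 0, and 1, the presynaptic adhesion gene Nrxn3, was called (5.81, limma adjusted p = 0.00195). Nrxn3 had 0.895 and 8.55 normalised counts in eGFP 1 and 2 and 330 and 170 in mVEGF-C 1 and 2. In eGFP 1 it lay under the 2.69 normalised counts that 3 reads equal there, so its fold change depends on the pseudocount. The part of these markers in the values of Nalcn and Kcnip4 was not tested.

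Per kb of exon the highest potassium channel transcript was Kcnn3, the small-conductance calcium-activated channel that links calcium to hyperpolarisation in endothelium. Its 13104 and 13083 normalised counts in eGFP and 20101 and 17743 in mVEGF-C libraries did not overlap. The difference of 0.53 on the log2 scale (SE 0.45) was not called (limma, adjusted p = 0.752), with leave-one-out values from 0.44 to 0.62. The inward rectifier Kcnj2, which holds the endothelial resting potential, had 2525 and 1819 against 5149 and 5485, again with both mVEGF-C libraries higher (log2 fold change 1.31 ± 0.80 SE, limma adjusted p = 0.571). Another inward rectifier, Kcnj15, was abundant and overlapped, with 2424 and 6612 against 4403 and 5186.

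Kcnj8 and Abcc9 encode the pore and the sulfonylurea receptor of the ATP-sensitive potassium channel of pericytes and smooth muscle, and lie next to each other on chromosome 6. Abcc9 had 10152.5 and 7325 normalised counts in eGFP and 5352 and 3139 in mVEGF-C libraries, without overlap (log2 fold change -1.07 ± 0.67 SE). Kcnj8 had 1897 and 4717 against 816 and 2010, where the groups overlapped (-1.22 ± 0.93 SE). Neither was called by limma (adjusted p = 0.578 and 0.705). Of the 4 mural markers with a row, Rgs5 had 13040 and 7792 against 7874 and 5955, and Notch3 had 799 and 2179 against 489 and 79.0. Pdgfrb had 2908 and 680 against 3532 and 2064, and Mcam had 723 and 174 against 340 and 550. Fold changes were above 0 for 2 of these 4 markers. The summed mural level was 17469 and 10824 in eGFP and 12235 and 8649 in mVEGF-C libraries, and its part in the values of Kcnj8 and Abcc9 was not tested.

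Per kb of exon the remaining 17 potassium channel genes, Kcnip4 included, lay between 3.18 and 136 normalised counts, below Kcnj2 at 688. Kcnq3 had 472 and 517 against 136 and 273 (log2 fold change -1.35 ± 1.22 SE), and Kcnk9 had 40.3 and 44.9 against 295 and 53.9, where mVEGF-C 1 alone was high. The rectifiers Kcnj1 and Kcnj10 and the modulatory subunit Kcng2, with means under 50, had log2 fold changes of -2.78, -2.62 and -3.65 and unadjusted p under 0.05, and none was called in the fit over all 4 libraries. Kcng2 was called lower without mVEGF-C 2 (-5.19, limma adjusted p = 0.0145), but stood at -2.11 without mVEGF-C 1 (0.681) and at -2.37 with a pseudocount of 5 (0.215). Kcng2 was at 0 in mVEGF-C 1, where 3 reads equal 3.20 normalised counts. The gene spans of Kcnip1 and Kcnmb1 overlap on opposite strands. Whether their exons overlap was not examined, so it is unknown if their values share reads.

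**Figure D2:**
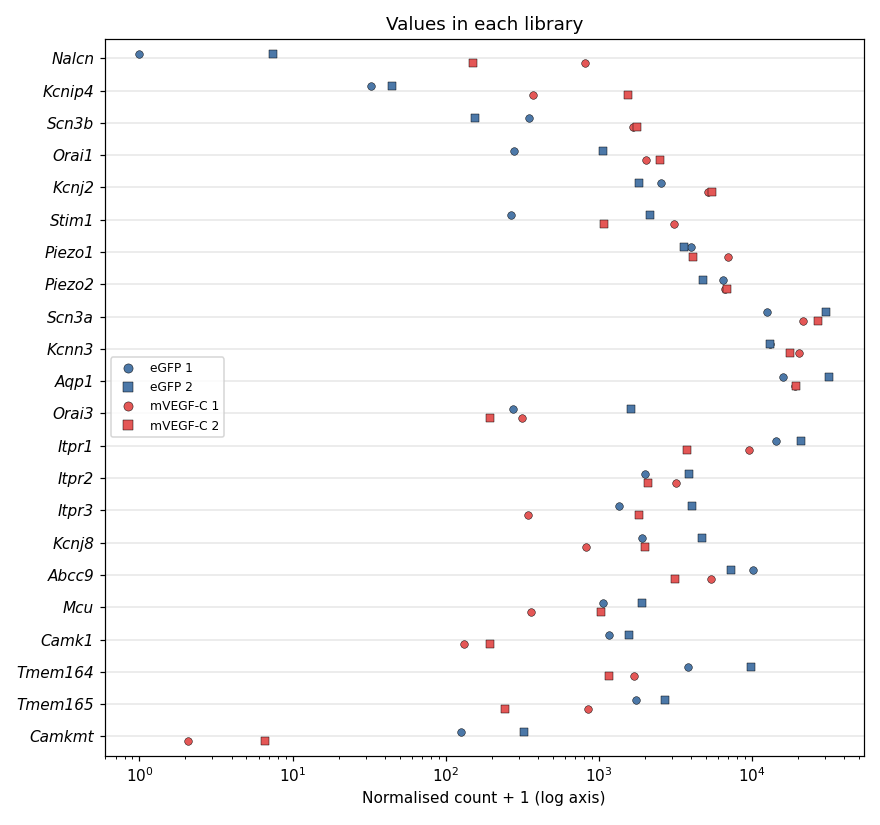
Normalised count plus 1 (horizontal log axis) of 22 named genes in each of the 4 libraries, eGFP in blue and mVEGF-C in red, circles for replicate 1 and squares for replicate 2. Nalcn, Kcnip4, Scn3b, Orai1 and Kcnj2 lie to the right in both mVEGF-C libraries, Itpr1, Abcc9, Mcu, Camk1, Tmem164, Tmem165 and Camkmt to the left, and Scn3a, Aqp1 and Itpr2 overlap.

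Calcium release and store-operated entry gave no called gene among 8 by limma (1 higher and 1 lower at an unadjusted p under 0.05, and 0 called by edgeR or DESeq2). Itpr1, the inositol trisphosphate receptor with the highest level per kb here, had 14296 and 20866 normalised counts in eGFP 1 and 2 and 9608 and 3744 in mVEGF-C 1 and 2. Both mVEGF-C libraries were lower, mVEGF-C 2 the lowest. The difference of -1.53 ± 0.54 SE on the log2 scale was not called (limma, adjusted p = 0.125), and with quantile normalization it was called (adjusted p = 0.0487). Without mVEGF-C 2 the difference was -0.85 (limma, adjusted p = 0.57) and without mVEGF-C 1 it was -2.21 (0.0562). Itpr2 had 1997 and 3850 against 3191 and 2078, and Itpr3 had 1342 and 4029 against 343 and 1830, both with overlap. Per kb of exon, Itpr1 made up 73.3% and 61.7% of the summed level of the receptor family in eGFP 1 and 2 and 67.4% and 37.3% in mVEGF-C 1 and 2, which overlapped.

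Orai1, the pore of the store-operated channel, had 277 and 1058 normalised counts in eGFP 1 and 2 and 2039 and 2517 in mVEGF-C 1 and 2. Both mVEGF-C libraries were higher, and eGFP 1 was low. A difference of 2.06 ± 1.05 SE on the log2 scale was not called (limma, adjusted p = 0.423), and moved between 1.10 and 3.03 as single libraries were left out, 1.10 being the value without eGFP 1. Orai3, a related pore, had 273 and 1621 against 313 and 192, with eGFP 2 alone high. Of the summed Orai1 and Orai3 level per kb, Orai1 took 48.6% and 37.9% in eGFP 1 and 2 and 85.9% and 92.4% in mVEGF-C 1 and 2, without overlap. With 2 libraries against 2 no exact permutation test can give a p below 0.333, so this share was not tested further. Stim1, the sensor that opens Orai channels, had 267 and 2145 against 3112 and 1075, and the groups overlapped. Atp2a2, the pump that refills the store, had 8451 and 4378 against 5632 and 10164 (log2 fold change 0.31, 95% interval -0.93 to 1.56). The ryanodine receptor Ryr3 had 144 in eGFP 1 and between 5.34 and 29.7 in the other libraries.

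Calcium pumps of the plasma membrane were led, per kb of exon, by Atp2b4 with 5376 and 6695 normalised counts in eGFP and 7614 and 7064 in mVEGF-C libraries, followed by Atp2b1 with 4592 and 1555 against 3382 and 841. Per kb of exon, Atp2b4 took 58.0% to 86.0% of the summed level of the 4 plasma membrane pump genes over the libraries, and the groups overlapped. The Golgi pump gene Atp2c1 stood at 1240 and 1058 against 845 and 4046, with mVEGF-C 2 high. Mcu, the pore of the mitochondrial calcium uniporter, had 1068 and 1908 against 359 and 1031 (log2 fold change -1.23 ± 1.08 SE). None of the 9 pump and uniporter genes was called or had an unadjusted p under 0.05 in limma, and edgeR and DESeq2 called 0 of them.

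Among calmodulin and its kinases, no gene of 7 was called by limma (1 lower at an unadjusted p under 0.05), 0 by edgeR and 1 by DESeq2. Calm2, 1 of the genes of calmodulin, the general calcium sensor, ranked 133 per kb of exon among the genes tested. It had 8406 and 3344 normalised counts in eGFP and 2967 and 5440 in mVEGF-C libraries, which overlapped (log2 fold change -0.40, 95% interval -1.83 to 1.03). Camk1, a calmodulin-dependent kinase, had 1162 and 1573 against 130 and 193, with both mVEGF-C libraries lower and close together. The log2 difference of -3.08 ± 1.18 SE was not called by limma (adjusted p = 0.179) and was called by DESeq2 (adjusted p = 0.0048). Camk2d, which encodes a broadly expressed kinase of this family, had 5528 and 3149 against 5121 and 5979, and Camk2a, the neuronal form, 331 and 157 against 100.4 and 124.

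Mechanosensitive and TRP channels gave no call among 9 genes, none had an unadjusted p under 0.05 in limma, and edgeR and DESeq2 called 0. Piezo1, the flow sensor, had 3999 and 3570 normalised counts in eGFP 1 and 2 and 6915 and 4141 in mVEGF-C 1 and 2, so that mVEGF-C 2 was only just above the eGFP pair. On the log2 scale the difference was 0.50 ± 0.73 SE (95% interval -0.94 to 1.94, adjusted p = 0.896 by limma). Piezo2, its relative known from sensory neurons, was present at a like level, with 6491 and 4758 against 6687 and 6870 (0.29, -1.004 to 1.58). Per kb, Piezo1 took 51.0% to 64.1% of the sum of both Piezo genes over the 4 libraries. The polycystins had 8776 and 10368 against 12883.5 and 4307 for Pkd1, and 6792 and 5889 against 4835 and 5799 for Pkd2. The channel kinase Trpm7 differed by 0.01 on the log2 scale (95% interval -1.14 to 1.15), with a sign that turned under other scalings. The endolysosomal channel Tpcn1 was at 820 in mVEGF-C 2 and between 3612 and 5550 in the other libraries. The oxidant-gated Trpm2 had 158 and 50.2 against 717 and 162, where mVEGF-C 2 was just above eGFP 1.

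Voltage-gated calcium channel subunits reached at most 70.5 normalised counts per kb of exon (Cacna1g), and 0 of 9 were called by limma, edgeR or DESeq2, with 0 at an unadjusted p under 0.05 in limma. The T-type gene Cacna1g had 921 and 433 against 729 and 775. Cacna2d2, an auxiliary subunit, had 301 and 98.3 against 349 and 548, and the neuronal gene Cacna1b had 26.9 and 32.1 against 135 and 36.2. For the ATP-gated channel gene P2rx4 the values were 1636 and 297 against 1146 and 814, and for the pannexin gene Panx1, whose channel releases ATP, 131 and 305 against 244 and 85.5.

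The sodium pump keeps the sodium and potassium gradients that channels use. Among its beta subunits, Atp1b2 stood at 6248 and 4332 normalised counts in eGFP and 2174 and 3641 in mVEGF-C libraries (-0.89 ± 0.77 SE) and Atp1b3 at 1548 and 4670 against 3882 and 2748 (0.28 ± 0.84 SE). Atp1b1, the most widespread beta subunit, had 5403 and 952 against 1799 and 2780, with the mVEGF-C pair between the eGFP libraries. None of the 6 pump genes was called or had an unadjusted p under 0.05 in limma, and edgeR and DESeq2 called 0.

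Chloride and volume-regulated anion channels (13 genes) gave 7 fold changes above 0, 0 called by limma, edgeR or DESeq2, and 0 at an unadjusted p under 0.05 in limma. Clic4, an intracellular chloride channel protein of endothelium, had 12198 and 8276 against 4023 and 10244, with mVEGF-C 1 low. Clic1, of the same family, had 2166 and 956 against 1578 and 1642, with overlap. The volume-regulated channel is built from Lrrc8a, its obligatory subunit, and partners such as Lrrc8c. Both were higher in both mVEGF-C libraries, Lrrc8a at 3572 and 1854 against 4423 and 5525 and Lrrc8c at 3398 and 2640 against 7980 and 4116, with log2 fold changes of 0.94 each (SE 0.79 and 0.75, limma adjusted p = 0.748 and 0.733). Lrrc8e, another partner, had 360 and 107 against 79.1 and 141. The lipid scramblase gene Ano6 stood at 3171 and 1559 against 1861 and 1890, the endosomal exchanger gene Clcn3 at 4793 and 7343 against 3273 and 5948, and the lysosomal exchanger gene Clcn7 at 1803 and 645 against 2298 and 1518.

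Aqp1, the water channel of many endothelia, had the highest level per kb of exon of the whole set and ranked 26. It had 15822 and 31762 normalised counts in eGFP and 19054 and 19275 in mVEGF-C libraries, where the mVEGF-C pair lay between the eGFP libraries (log2 fold change -0.23, 95% interval -0.9998 to 0.55). The astrocyte water channel Aqp4 had 57.3 and 101.6 against 70.5 and 112, and the other 3 aquaporins had means of 58.6 to 120. None of the 5 was called or had an unadjusted p under 0.05 in limma, and edgeR and DESeq2 called 0.

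**Figure D3:**
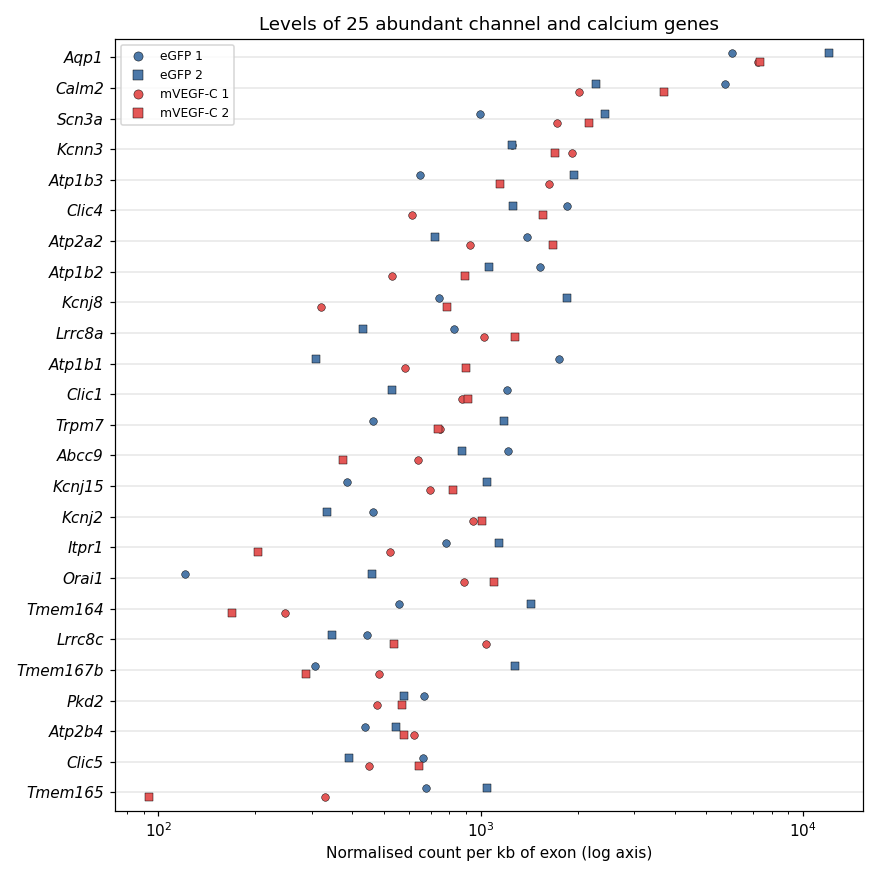
Normalised count per kb of exon (horizontal log axis) of 25 members with a high mean level, in each library, eGFP in blue and mVEGF-C in red, circles for replicate 1 and squares for replicate 2. Aqp1 leads, followed by Calm2 and Scn3a, and for Kcnn3, Kcnj2 and Orai1 both red libraries lie to the right of both blue ones.

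The 6 genes caught by name alone included the 1 called decrease. Camkmt (chromosome 17, 85090552 to 85458588) methylates a lysine of calmodulin. It had 124 and 324 normalised counts in eGFP 1 and 2 and 1.07 and 5.57 in mVEGF-C 1 and 2. Both mVEGF-C libraries were near absence. The difference was -5.77 ± 1.31 SE on the log2 scale (limma, adjusted p = 0.00197), and it was called under 13 of 16 alternatives, the exceptions being without eGFP 1 (adjusted p = 0.127), without eGFP 2 (0.758) and with the corrected spread (0.0757). Prepl, which encodes a prolyl endopeptidase-like protein and was chosen after its values were seen, starts 311 bases away on the opposite strand, and the Camkmt promoter printed above does not reach its start. Prepl had 1265 and 2260 against 480 and 584, also lower in both mVEGF-C libraries, but was not called (log2 fold change -1.67 ± 1.08 SE, limma adjusted p = 0.611). Tmem164 had 3812 and 9843 against 1692 and 1161 (-2.13 ± 0.84 SE, limma adjusted p = 0.196). Tmem165, a Golgi membrane protein of ion homeostasis, had 1756 and 2702 against 849 and 242 (-2.26 ± 1.07 SE, limma adjusted p = 0.35). Tmem167 had 1063 and 434 against 2300 and 1258.

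**Figure D4:**
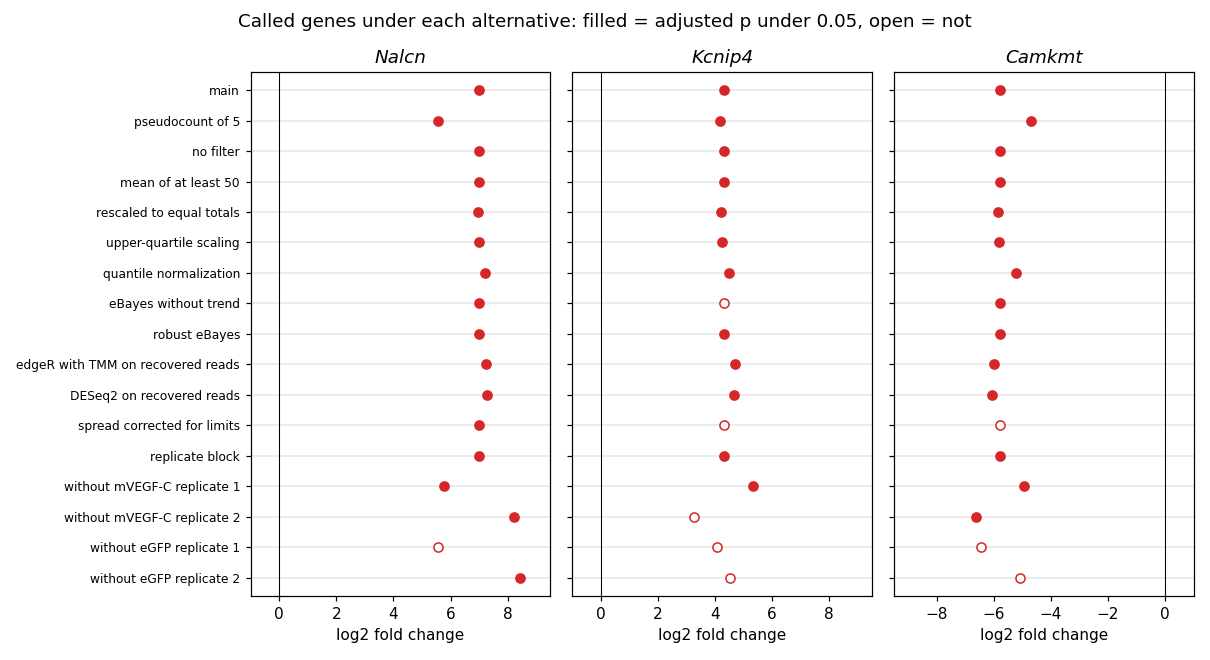
log2 fold change (horizontal axis) of Nalcn, Kcnip4 and Camkmt in the fit described and under 16 alternatives (rows); filled circles mark an adjusted p under 0.05, open circles not. The sign of each gene is the same in every row, and Nalcn is open in 1, Kcnip4 in 5 and Camkmt in 3.

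Genes of calcium signalling outside the name rule were taken from 3 lists. Of 43 listed exchangers, buffers and endoplasmic reticulum proteins, 22 were tested, 16 had log2 fold changes above 0, the median was 0.62 and none was called by limma (4 higher and 2 lower at an unadjusted p under 0.05) or edgeR, while DESeq2 called 3 higher (Vdac2, Tmem38b and Slc24a1) and 1 lower (Hrc). Over all genes 49.5% of fold changes were above 0 with a median of -0.02. Of all genes, DESeq2 called 3.12% higher and 3.51% lower, and 5.09% were higher and 6.7% lower at an unadjusted p under 0.05 in limma. The 4 higher by limma at an unadjusted p under 0.05 were Vdac2 and Vdac3, channels of the mitochondrial outer membrane, Tmem38b, a cation channel of the endoplasmic reticulum, and Slc24a1, a sodium and calcium exchanger. Vdac2 had 715 and 729 normalised counts in eGFP and 6074 and 4100 in mVEGF-C libraries (2.79 ± 0.94 SE, limma adjusted p = 0.0933), and Vdac3 had 604 and 1209 against 4112 and 3714. In the other direction, Sdf4, a calcium-binding protein of the Golgi, had 9616 and 6289 against 1889 and 3179, and Hrc, a calcium-binding protein of the reticulum, 56.4 and 94.1 against 7.48 and 2.79.

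Of 47 listed signalling genes, 28 were tested, with 11 fold changes above 0 and a median of -0.34. By limma 1 was called lower, and 4 were lower at an unadjusted p under 0.05. Over all genes, 49.5% of fold changes were above 0, with a median of -0.02. Of all genes, limma called 1.31% lower and DESeq2 3.51%, and 6.7% were lower at an unadjusted p under 0.05 in limma. Plcg2, a phospholipase that makes inositol trisphosphate and is best known from immune cells, had 1178 and 572 normalised counts in eGFP and 112 and 9.29 in mVEGF-C libraries (log2 fold change -4.59 ± 1.27 SE, limma adjusted p = 0.0202). It was called under 10 of 16 alternatives and lost in edgeR (adjusted p = 0.115), without trend (0.131), with the corrected spread (0.228), and without eGFP 1 (0.456), eGFP 2 (0.505) or mVEGF-C 2 (0.268, at -2.86). Of the 15 myeloid markers 3 had a row. Their summed level was 28459 and 34167 in eGFP and 30489 and 26570 in mVEGF-C libraries. Nearly all of this sum was Mrc1, with 27577 and 32880 against 28512.5 and 23299 in cells sorted as CD45-. Which cells gave the Mrc1 reads was not tested, so the sum is no measure of myeloid content. The remaining markers went opposite ways. Itgam had 698 and 310 against 76.9 and 123 (log2 fold change -2.25), and Laptm5 had 184 and 977 against 1899 and 3148 (2.52). Neither was called by limma (adjusted p = 0.501 and 0.254). The part of these markers in the value of Plcg2 was not tested. At an unadjusted p under 0.05 but not called by limma were also the coactivator gene Crebbp (-2.45), the phospholipase gene Plcb3 (-2.83) and S100a10 (-2.64), and DESeq2 called Plcb3 and S100a10 with Plcg2. Crebbp stood at -4.31 and was called without mVEGF-C 2 (limma, adjusted p = 0.00245), but at -0.58 without mVEGF-C 1 (0.91) and at -1.48 in edgeR (0.376).

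Of 72 listed other channels, connexins and regulators, 32 were tested, with 15 fold changes above 0 and a median of -0.21. By limma 1 was called lower, and 3 were higher and 2 lower at an unadjusted p under 0.05. Over all genes, 49.5% of fold changes were above 0, and 5.09% were higher and 6.7% lower at that unadjusted p. Of all genes, limma called 1.31% lower, and DESeq2 called 3.12% higher and 3.51% lower. Tmc4, of the transmembrane channel-like family, had 209 and 943 against 9.61 and 21.4 (-4.85 ± 1.30 SE, limma adjusted p = 0.0148) and was called under 11 of 16 alternatives, the others being without trend (adjusted p = 0.0754), the corrected spread (0.164), and without eGFP 1 (0.141), eGFP 2 (0.999) or mVEGF-C 1 (0.0802). At an unadjusted p under 0.05 but not called by limma were Cngb1, a subunit of cyclic nucleotide-gated channels (2.90), Fxyd6, a sodium pump regulator (2.47), Itpripl1 (2.86) and Tmem120a (-3.40), and DESeq2 called Cngb1 and Itpripl1. Tmem120a was called without mVEGF-C 2 (-4.87, limma adjusted p = 0.0281), but stood at -1.93 without mVEGF-C 1 (0.736).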

How the data were processed

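Libraries were made from linearly amplified RNA of the sorted cells, per the labels' protocols. The authors deposited 1 table of 9114 genes in 4 libraries. Per the submitters' processing notes, FastQC, Trimmomatic, Salmon and DESeq2 were used on mm10. The annotation is, like the strand setting, not given in the sources used here. As deposited, the values are a signal, counts divided by a size factor per library: 100% were whole multiples, within 0.001, of what 1 read is worth in the library, which gave back the reads. The table's genes agree between replicates, as read from the values: 2 libraries of a group never differed by more than 2.83 (eGFP) or 4.24 (mVEGF-C) on the log2(reads + 1) scale. Replicates still differed far beyond sampling noise (chi-square per degree of freedom 457 and 517).

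All 9063 genes with a mean of at least 10 were fitted with limma 3.58.1 in R 4.3.3 (eBayes with trend, two-sided) on log2(normalised count + 1), with Benjamini-Hochberg adjustment over all of them. Folds on this scale understate changes of low genes. The prior degrees of freedom were infinite, so a gene's own spread did not enter its p-value. Alternatives included edgeR 4.0.16 and DESeq2 1.42.0 on the recovered reads, and a spread fitted in 20 bins of expression to differences truncated at the limits above (the corrected spread). Levels between genes are given per kb of merged exons of GENCODE vM21, whose assembly GRCm38 is mm10 and which gave the 1-based coordinates. Members and lists were chosen with earlier results of these data known. Genes named are the called members, the 10 highest and 10 lowest with a mean of at least 50 and no overlap, the top of each role and a list of 59 genes, of which 41 had a row, and list genes called or with an unadjusted p under 0.05; the others were not analysed here, and some genes are not reported here. Further members are named with values where a class is described, chosen after their values were seen.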

Additional observations from a re-analysis of the deposited data

How the results depend on the processing

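The number of members called was 2 higher and 1 lower in the fit described. It was 1 higher without trend and with the corrected spread, 3 higher in DESeq2, and 2 lower with quantile normalization and DESeq2, against 0 with the corrected spread (5 at an unadjusted p under 0.05). Leaving out single libraries gave 0 to 2 higher and 0 to 2 lower. Without eGFP 1 limma called 0 members (3 higher and 5 lower at an unadjusted p under 0.05), and without eGFP 2 it called 1 higher and 0 lower. The median log2 fold change of the members ranged from -0.15 to 0.12 over the fits without 1 library, the highest being without mVEGF-C 1. Over all genes, 75 were called higher and 119 lower, with 283 and 318 in DESeq2, 67 and 79 in edgeR, 17 and 37 with the corrected spread, 15 and 26 without trend, 19 and 19 without eGFP 1, 5 and 0 without eGFP 2, and 104 and 188 without mVEGF-C 2. Rescaling to equal totals moved the median of all genes to -0.10 and called 60 and 122.

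Libraries with the same replicate number did not deviate together over all genes (correlation of deviations across genes 0.00013). The labels give no pairing, and this value cannot show whether libraries were handled in pairs. With the replicate number as a block, 2 members were called higher and 1 lower, and 74 and 129 of all genes.

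Trpm7 stood at 0.01 in the fit described, at -0.075 rescaled to equal totals, -0.066 with upper-quartile scaling, -0.067 with quantile normalization, -0.13 in edgeR and -0.15 in DESeq2. Single libraries turned the sign of 21 uncalled genes chosen by the naming rule, whose log2 fold changes ranged from -0.76 to 0.27 for Ano6, from -0.73 to 0.28 for Aqp1, from -0.19 to 0.63 for Aqp4, from -1.27 to 1.23 for Atp1b1, from -0.52 to 1.08 for Atp1b3, from -0.16 to 0.79 for Atp2a2, from -1.67 to 0.34 for Atp2b1, from -0.44 to 1.82 for Atp2c1, from -0.29 to 0.79 for Cacna1g, from -1.06 to 0.27 for Calm2, from -0.86 to 0.004 for Clcn3, from -0.43 to 0.75 for Clic1, from -1.32 to 0.028 for Clic4, from -0.58 to 0.37 for Itpr2, from -0.76 to 1.70 for P2rx4, from -1.21 to 0.28 for Panx1, from -1.15 to 0.43 for Pkd1, from -0.33 to 0.96 for Scn3a, from -0.23 to 2.77 for Stim1, from -2.28 to 0.47 for Tpcn1 and from -0.67 to 0.68 for Trpm7. The cause was not tested. Of all 104 members tested, 51 turned sign in at least 1 fit without a library, among them Camk4, Cacna1a, Clcn4, Kcnip1, Kcnj15, Scn1a, Scn2a, Scn2b, Tmem167b and Trpc4ap, as did 30 of 82 list genes, Unc79 included. With 2 libraries per group, differences of the size of the SEs given could not be detected.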

Other observations

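For some members 1 library stood apart from the other 3. As a description made after the values were seen, a library was counted where it lay at least 4-fold above or below each of the other 3 on the normalised count + 1 scale. mVEGF-C 1 was above in this way for 5 of 104 members (4.81%, against 2.45% of all genes), eGFP 2 for 2 (1.92%, against 2.14%), and eGFP 1 and mVEGF-C 2 for 1 each (0.962%, against 0.574% and 1.68%). The brain calcium channel gene Cacna1a had 988 normalised counts in mVEGF-C 1 and between 91.9 and 145 in the other libraries. Camk4, a calmodulin-dependent kinase of neurons and T cells, had 2195 in mVEGF-C 1 and between 163 and 201 elsewhere. Kcnk9, Trpm2 and Nalcn were the other 3 members highest there. Nalcn was also counted as below in eGFP 1, where it was at 0 against 6.41 in eGFP 2. A library that stood apart carried the difference for some of these members and not for others. The log2 fold change of Nalcn was 5.78 without mVEGF-C 1, and that of Kcnip4, above in mVEGF-C 2, was 3.28 without that library. Without mVEGF-C 1, Camk4 went from 1.68 to -0.195 and Cacna1a from 1.47 to -0.149. Kcnk9 went from 1.55 to 0.33 and Trpm2 from 1.92 to 0.85. Libraries were below the other 3 for 3 members each in mVEGF-C 1 and mVEGF-C 2 (2.88%, against 4.68% and 3% of all genes), 2 in eGFP 1 (1.92%, against 0.684%) and 0 in eGFP 2 (against 1.72%), among them Stim1, at 267 in eGFP 1, and the endosomal exchanger gene Clcn4, at 26.0 in mVEGF-C 2.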
